A study of Mus musculus with 9 samples.

Results

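The genes examined are those of the piRNA pathway and of the germ granules in which much of that pathway is housed, as expressed in the postnatal mouse testis. They were chosen by name and number 33 of the 56691 genes in the count table. By role they are 3 Piwi genes, 11 genes of Tudor-domain proteins, 10 genes of piRNA production, 3 genes of transposon silencing in the nucleus, the transcription factor gene Mybl1, and 5 genes of granule proteins and their modifying enzymes. All 33 were present in the table, 32 had enough reads for a test, and Tdrd6 did not.

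Piwi-interacting RNAs (piRNAs) are small RNAs of the germ line that guide Piwi proteins to transposon and other transcripts. Long precursors are cut at the outer mitochondrial membrane, loaded onto a Piwi protein, trimmed and methylated. Prmt5 with its cofactor Wdr77 methylates arginines of Piwi proteins, and Tudor proteins bind these marks and gather the pathway in granules beside the mitochondria, where the RNA helicase Ddx4 also lies. Before birth Piwil2 and Piwil4 take part in the DNA methylation of transposons, while Piwil1 and the abundant piRNAs driven by Mybl1 belong to meiotic pachytene cells, which appear after the age studied here.

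Polyadenylated RNA from testes of mice at postnatal day 7 was sequenced in 9 libraries, in 3 groups of 3: wild type (WT), a group labelled Gm1142-/-, whose members are called the Gm1142-labelled libraries, and the double knockout Gm1142-/- Gm4779-/-. No treatment is named, and strain, allele design, litter and pooling are not given in the sources used here. No source states that replicates are separate animals, so the p-values cover the spread among these libraries alone, and that spread may be technical. The question is how the genes differ from WT when Gm1142 is targeted alone or with Gm4779. Counts of Gm1142 were 56, 50 and 41 in WT, 65, 46 and 50 in the Gm1142-labelled libraries, and 0 in each of the 3 double-knockout libraries. Counts of Gm4779 were 42, 48 and 53 in WT, 88, 61 and 59 in the Gm1142-labelled libraries, and 0 in the 3 double-knockout libraries, and a count of 0 allows up to 3 counts in a library. Counts summed over a whole gene would not show a small deletion, so that group is named by its label.

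Libraries held 4370124 to 8359594 counts in genes, and double knockout replicate 2 was the deepest. Mitochondrially encoded genes took 29.4% to 32.7% of counts in WT, 32.5% to 38.9% in the Gm1142-labelled libraries and 27.1% to 32.9% in the double knockout. The 3 Gm1142-labelled libraries stood apart: across the 17251 tested genes, Spearman correlations of their counts with the other groups were 0.905 to 0.947, against 0.957 to 0.969 between WT and double-knockout libraries. Levels are CPM values (counts scaled to a fixed library size) after TMM, a correction for composition. Tests are edgeR's quasi-likelihood F-tests over all genes, with Benjamini-Hochberg adjustment, and "called" means an adjusted p under 0.05. In whole testis, more cells of a type and more RNA per cell cannot be told apart.

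Levels in WT differed widely among the genes. Per kilobase of exon, Ddx4 was highest at 21.4 ± 1.84 CPM per kb (SD, n = 3). Mael, a granule protein needed for transposon silencing, followed at 17.7 ± 1.05 and Pnldc1, the exonuclease that trims piRNA ends, at 15.3 ± 0.185 CPM per kb. Fkbp6, a co-chaperone in the loading of Piwi proteins, was next at 10.7 ± 0.668 CPM per kb and did not differ from Tex19.1, Wdr77 and Prmt5 beyond their spread, at 10.6 ± 0.719, 10.3 ± 0.502 and 10.2 ± 0.576 CPM per kb. Piwil2 stood at 8.77 ± 0.661 CPM per kb, Piwil4 at 1.75 ± 0.293 and Piwil1 at 0.603 ± 0.142. The biogenesis genes Henmt1 and Exd1 were also low, at 1.81 ± 0.615 and 1.15 ± 0.0518 CPM per kb. Tdrd6, which belongs to the granules of later spermatocytes and spermatids, had 0, 2 and 0 counts in WT, 5, 0 and 6 in the Gm1142-labelled libraries and 0, 2 and 0 in the double knockout, all close to the floor of 3 counts.

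The double knockout had most of the genes above WT by modest amounts, with 1 gene called. Fkbp6 rose, none of the 32 tested genes was called lower, and across all tested genes 0.0464% were called higher and 0.0464% lower. Without adjustment, 15 of the 32 had an edgeR p under 0.05 on the higher side and 1, Mybl1, on the lower side. Of the 17251 tested genes, 831 and 713 did. DESeq2 and limma-voom also called only Fkbp6. The fitted log2 fold change lay above 0 for 28 genes, against 52.3% of all tested genes, and below 0 for 4. Its median was 0.44 against 0.02 over all tested genes. In 21 of the 32 genes all 3 double-knockout libraries lay above all 3 WT libraries, against 8.28% of all tested genes, and in 1 gene, Mybl1, all lay below, against 7.57%. The highest of the 9 libraries was a double knockout in 24 of the 32 genes, 15 of them in the deepest library, and the lowest was a double knockout in none. These extremes were not counted over all tested genes.

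In the Gm1142-labelled libraries against WT, Stk31 and Wdr77 rose and Mybl1 fell, while 10.2% of all tested genes were called higher and 8.38% lower. The fitted log2 fold changes ran from -0.62 to 0.90 with a median of 0.09, against -0.01 over all tested genes. In 6 genes the Gm1142-labelled libraries all lay above WT, against 18.7% of all tested genes, and in Mybl1 alone all lay below, against 17.2%. The shares of these genes called or separated were near or under the background. Between the knockout groups 6 genes were called higher in the double knockout and none lower, although 9.07% of all tested genes were called higher and 10.1% lower. Those 6 were Fkbp6, Tex15, Mael, Ddx4, Prmt5 and Tdrkh, and limma-voom called 10. Both shares are those of edgeR, and the share of all tested genes called by limma-voom is not given here. Without adjustment 12 had an edgeR p under 0.05 on the higher side and none on the lower. Of the 17251 tested genes, 2871 and 2678 did. DESeq2 also called none lower. In 10 genes all double-knockout libraries lay above all Gm1142-labelled libraries, against 16.3% of all tested genes, and in Wdr77 all lay below, against 17.1%. The median log2 fold change was 0.34, against 0.03 over all tested genes. Any pair of these comparisons shares 1 group of libraries, so their values are set side by side and not taken as independent.

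**Figure D1:**
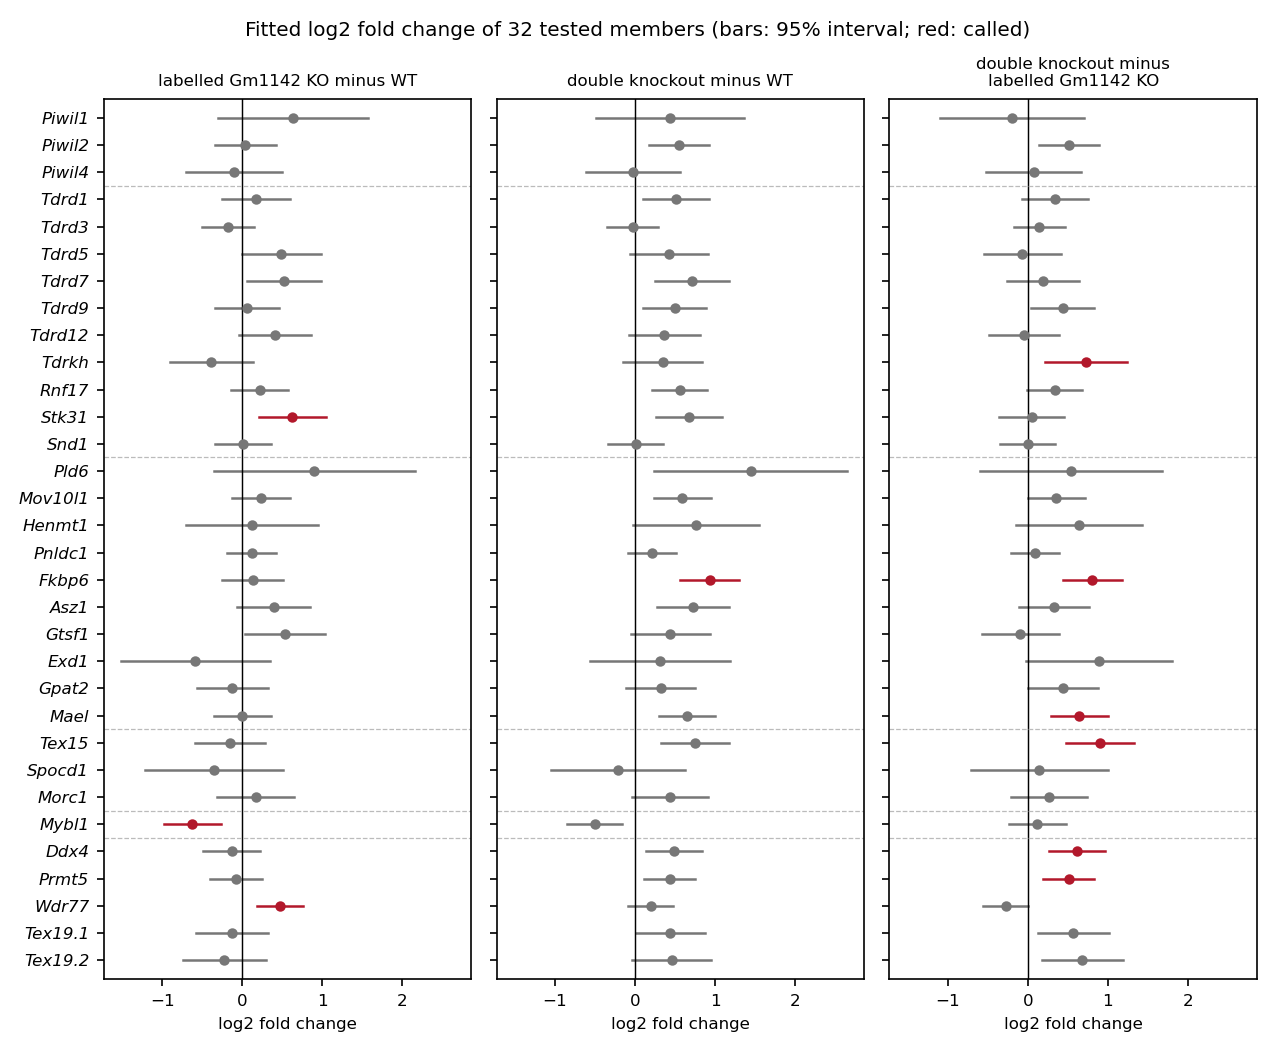
Fitted log2 fold change (horizontal axis) of the 32 tested genes in the 3 comparisons, with 95% intervals as bars and called genes in red; dashed lines separate Piwi, Tudor, biogenesis, nuclear silencing, transcription factor and granule genes. In the double knockout against WT 28 points lie right of 0 and 1 is called, and in the Gm1142-labelled libraries against WT 20 lie right of 0 and 12 left.

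Among the Piwi genes only Piwil2, whose protein is the main piRNA carrier in spermatogonia, had an interval against WT that left 0 out, and none was called. Its levels were 47.9, 42.4 and 48.9 CPM in WT, 52.6, 31.2 and 58.6 in the Gm1142-labelled libraries and 61.8, 69.9 and 72.5 in the double knockout. Every double-knockout library lay above the other 6, and the Gm1142-labelled libraries lay on both sides of WT with replicate 2 the lowest of all. The log2 fold change of Piwil2 was 0.55 (edgeR adjusted p = 0.361, standard error, SE, 0.18) in the double knockout against WT, 0.04 (adjusted p = 0.910) in the Gm1142-labelled libraries against WT, and 0.51 (adjusted p = 0.0508) between the knockout groups. The last value passed the threshold without a filter, with the strict filter, with limma-voom and after thinning to equal depth, and did not pass with DESeq2, with its size factors, in a fit of the 2 groups alone or with mitochondrial genes removed (edgeR or DESeq2 adjusted p up to 0.0876). Without replicate 2 of the Gm1142-labelled libraries it was 0.28 (adjusted p = 0.248).

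Piwil4, the nuclear Piwi gene of fetal and neonatal germ cells, was at 8.61, 11.2 and 8.399 CPM in WT, 11.3, 8.44 and 6.60 in the Gm1142-labelled libraries and 8.80, 9.25 and 9.74 in the double knockout. The 3 groups overlapped, and the log2 fold change of the double knockout against WT was -0.03 with a 95% interval of -0.62 to 0.57. Piwil1 was at 1.91, 2.96 and 3.01 CPM in WT, 3.50, 4.09 and 4.69 in the Gm1142-labelled libraries and 3.64, 3.84 and 3.17 in the double knockout. These are 10 to 34 counts per library. Both knockout groups lay above WT, but the intervals of the log2 fold changes, -0.30 to 1.57 and -0.49 to 1.37, held 0, so no difference was shown. The parts of low counts and of spread among libraries in this were not tested.

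Of the 10 tested Tudor genes, 1 was called in each comparison that involved the Gm1142-labelled libraries, and none in the double knockout against WT. A share of 1 in 10 is near the background of 10.2% called higher against WT and 9.07% between the knockout groups. Stk31, a germ-cell protein with a Tudor and a kinase domain, had 19.3, 25.4 and 18.1 CPM in WT, 38.1, 31.2 and 27.7 in the Gm1142-labelled libraries and 31.6, 39.6 and 28.5 in the double knockout. Both knockout groups lay above WT in every library and overlapped each other. Stk31 rose by 0.63 in log2 terms in the Gm1142-labelled libraries (edgeR adjusted p = 0.0337, SE 0.20). In the double knockout its log2 fold change was 0.67 against WT (edgeR adjusted p = 0.275, SE 0.20) and 0.05 against the Gm1142-labelled libraries (95% interval -0.36 to 0.45). Before adjustment the edgeR p was 0.00533 in the Gm1142-labelled libraries and 0.00279 in the double knockout. Without WT replicate 1, WT replicate 3 or replicate 1 of its own group the call of Stk31 was lost, with an adjusted p of up to 0.143.

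Tdrkh ties Piwi proteins and the trimming enzyme to the mitochondrial surface. It had 12.1, 20.3 and 15.3 CPM in WT, 13.2, 8.95 and 14.1 in the Gm1142-labelled libraries and 19.3, 21.8 and 19.3 in the double knockout. The knockout groups did not overlap, and WT overlapped both. Tdrkh was higher in the double knockout than in the Gm1142-labelled libraries by 0.73 on the log2 scale (edgeR adjusted p = 0.0409, SE 0.24), and the call held in 2 of the 9 fits with a library left out (adjusted p up to 0.159, without replicate 2 of the Gm1142-labelled libraries). In the GENCODE M21 annotation Tdrkh shares 36.7% of its exonic bases with Oaz3 on the opposite strand, and the strand setting of the counting is not given in the sources used here. Oaz3 itself held 96 counts over the 9 libraries.

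The other tested Tudor genes did not pass. Tdrd7, a granule protein also known from the lens, had 33.1, 28.4 and 13.8 CPM in WT, 35.7, 37.6 and 35.4 in the Gm1142-labelled libraries and 41.5, 42.4 and 39.9 in the double knockout. WT replicate 3 stood far below the rest, and both knockout groups lay above WT. Its log2 fold changes against WT were 0.52 (edgeR adjusted p = 0.114) and 0.71 (adjusted p = 0.309). Rnf17 with 0.56, Tdrd1, a partner of Piwil2, with 0.52, and the helicase gene Tdrd9 with 0.50 had intervals above 0 in the double knockout against WT, and the helicase gene Tdrd12 and Tdrd5 had 0.36 and 0.42 with intervals that held 0. Tdrd3 and Snd1, which are expressed in many tissues, were at -0.03 (95% interval -0.35 to 0.29) and 0.01 (95% interval -0.34 to 0.35).

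Of the 10 genes of piRNA production Fkbp6 rose in the double knockout. All 10 had a positive fitted log2 fold change against WT, from 0.21 to 1.45 with a median of 0.62, and in 8 of 10 all double-knockout libraries lay above WT, against 8.28% of all tested genes. Fkbp6 (chr5:135291704-135350044, minus strand, GRCm38) had levels of 18.4, 20.1 and 17.9 CPM in WT, 21.8, 19.18 and 20.7 in the Gm1142-labelled libraries, and 36.4, 33.8 and 38.1 in the double knockout. The double-knockout libraries lay well above the other 6, which overlapped each other. Fkbp6 rose 1.92-fold against WT (log2 fold change 0.94, edgeR adjusted p = 0.0368, SE 0.18) and 1.75-fold against the Gm1142-labelled libraries (0.81, SE 0.18, adjusted p = 0.00303). Against WT the fold held its size with any library left out (log2 0.88 to 0.99), but the call held in 2 of 9 such fits, those without replicate 1 or 2 of the Gm1142-labelled libraries, with an adjusted p of up to 0.306 without WT replicate 1. That call was also lost with mitochondrial genes removed (adjusted p = 0.0573), while the call between the knockout groups held in 9 of 9.

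Mael (chr1:166201201-166238747, minus strand) had 30.2, 29.2 and 32.7 CPM in WT, 31.3, 24.5 and 36.2 in the Gm1142-labelled libraries and 46.7, 52.1 and 45.3 in the double knockout. As with Fkbp6, the double-knockout libraries lay above all others. The log2 fold change of Mael was 0.65 against WT (edgeR adjusted p = 0.206, SE 0.17) and 0.65 against the Gm1142-labelled libraries (SE 0.17, adjusted p = 0.0107), where it rose. That call was lost without replicate 2 of the Gm1142-labelled libraries (adjusted p = 0.0571).

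Mov10l1, the helicase that feeds precursors into the pathway, had a log2 fold change of 0.59 in the double knockout against WT (edgeR adjusted p = 0.265), and Asz1, a scaffold on the mitochondrial surface, had 0.72 (adjusted p = 0.280). Neither was called in any comparison. Pld6, the mitochondrial nuclease that cuts precursors, had 1, 12 and 12 counts in WT, 19, 13 and 12 in the Gm1142-labelled libraries and 33, 36 and 16 in the double knockout. Its log2 fold change of 1.45 against WT had a 95% interval of 0.24 to 2.66 and an edgeR adjusted p of 0.471, and its lowest value came from 1 count. The methyltransferase gene Henmt1, at 0.76, the trimmer gene Pnldc1, at 0.21, Gtsf1, a helper of Piwi cleavage, at 0.44, Gpat2 at 0.32 and Exd1 at 0.31 all had intervals that held 0. Exd1, a partner of Tdrd12, had 36, 37 and 31 counts in WT but 11, 8 and 45 in the Gm1142-labelled libraries, where replicate 3 stood apart from the other 2.

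Of the nuclear silencing genes, Tex15 rose between the knockout groups. Tex15 (chr8:33516738-33585582, plus strand) acts with Piwil4 in transposon methylation. Its levels were 58.6, 68.8 and 47.2 CPM in WT, 63.9, 38.9 and 53.5 in the Gm1142-labelled libraries and 72.1, 132 and 87.4 in the double knockout. Each double-knockout library lay above the other 6, and double knockout replicate 2 stood far above the other 2. Tex15 was 1.87-fold higher than in the Gm1142-labelled libraries (log2 fold change 0.90, edgeR adjusted p = 0.00414, SE 0.21), and the call held in 9 of 9 fits with a library left out, where the log2 fold change ranged from 0.62 without double knockout replicate 2 to 1.08. Against WT it was 0.75 (SE 0.20, adjusted p = 0.241), and it passed the threshold there with no filter on low counts (adjusted p = 0.00129). Morc1 had 0.44 and Spocd1, which acts with Tex15 and Piwil4, had -0.21 against WT in the double knockout, both with intervals that held 0.

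Mybl1 (chr1:9667415-9700209, minus strand) had the lowest fitted fold change against WT of the 32 genes in both knockout groups. Its levels were 54.0, 44.5 and 46.7 CPM in WT, 28.9, 29.9 and 35.6 in the Gm1142-labelled libraries and 32.0, 39.8 and 30.1 in the double knockout. All 6 knockout libraries lay below all 3 WT libraries, and the knockout groups overlapped. Mybl1 fell by 0.62 on the log2 scale in the Gm1142-labelled libraries (edgeR adjusted p = 0.0134, SE 0.17). In the double knockout the log2 fold change was -0.50 (edgeR adjusted p = 0.369, SE 0.17), and between the knockout groups 0.12 (95% interval -0.24 to 0.47). The call was lost without WT replicate 1, the highest library (adjusted p = 0.0826).

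The granule genes Ddx4 and Prmt5 rose between the knockout groups, and Wdr77 rose in the Gm1142-labelled libraries against WT. Ddx4 (chr13:112598333-112652475, minus strand) had 58.8, 65.2 and 69.8 CPM in WT, 56.3, 52.2 and 68.2 in the Gm1142-labelled libraries and 66.4, 113 and 90.8 in the double knockout. The groups overlapped, because double knockout replicate 1 lay within the range of WT and just under replicate 3 of the Gm1142-labelled libraries. The log2 fold change of Ddx4 between the knockout groups was 0.62 (edgeR adjusted p = 0.0144, SE 0.17). Without double knockout replicate 2 the adjusted p was 0.112, and the call was also lost without replicate 2 of the Gm1142-labelled libraries. Against WT the log2 fold change was 0.48 in the double knockout (adjusted p = 0.405) and -0.13 in the Gm1142-labelled libraries.

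Prmt5 (chr14:54507187-54517525, minus strand) had 37.7, 40.6 and 42.2 CPM in WT, 40.8, 30.9 and 42.2 in the Gm1142-labelled libraries and 52.4, 57.0 and 53.2 in the double knockout. The double-knockout libraries lay above all others. Prmt5 was higher than in the Gm1142-labelled libraries by 0.51 on the log2 scale (edgeR adjusted p = 0.0247, SE 0.15), a call lost without replicate 2 of those libraries (adjusted p = 0.122) and without double knockout replicate 1 or 2. Against WT its log2 fold change was 0.43 (adjusted p = 0.421).

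Wdr77 (chr3:105959369-105970037, plus strand) had 50.3, 47.3 and 52.1 CPM in WT, 71.1, 63.4 and 72.9 in the Gm1142-labelled libraries and 53.4, 56.2 and 62.1 in the double knockout. The Gm1142-labelled libraries were the highest and did not overlap with either other group. Wdr77 rose by 0.47 on the log2 scale against WT in these libraries (edgeR adjusted p = 0.0203, SE 0.14), and its log2 fold changes were 0.20 in the double knockout against WT (adjusted p = 0.713) and -0.28 between the knockout groups (adjusted p = 0.167). Leaving out WT replicate 1 or 2, or replicate 1 or 3 of the Gm1142-labelled libraries, ended the call (adjusted p up to 0.0974), as did using no filter on low counts (0.0519). In GENCODE M21, Wdr77 shares 28.7% of its exonic bases with Gm42890 on the same strand and 6.96% with Atp5f1 on the opposite strand, a gene with 4903 counts in the 9 libraries, so the counts of Wdr77 are uncertain where these overlap. The paralogues Tex19.1 and Tex19.2, of which Tex19.1 is known to restrain transposons, had log2 fold changes of 0.57 and 0.68 between the knockout groups (edgeR adjusted p = 0.0647 and 0.0535), and reads that fit both cannot be assigned with certainty.

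**Figure D2:**
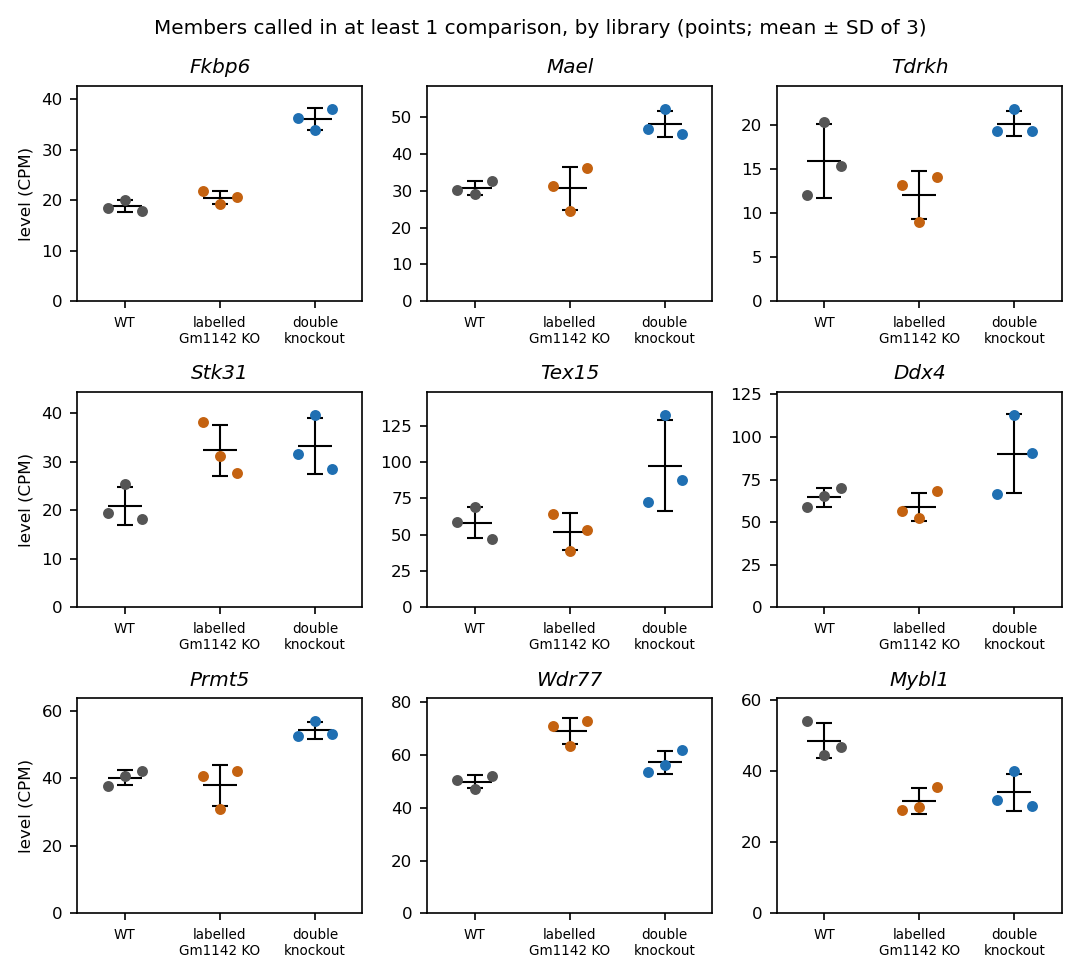
Level in CPM (vertical axis, from 0) of the 9 genes called in at least 1 comparison, by group; points are libraries and bars the mean ± SD of 3. The double-knockout points of Fkbp6, Mael, Tex15 and Prmt5 lie above all others, the knockout points of Mybl1 lie below WT, and Wdr77 is highest in the Gm1142-labelled libraries.

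Replicate 2 of the Gm1142-labelled libraries had the highest mitochondrial share (38.9%). It was the lowest of the 9 libraries in 8 of the 32 genes, and WT replicate 1 was also the lowest in 8. The lowest library was not counted over all tested genes. Without replicate 2 of the Gm1142-labelled libraries, 3 genes were called between the knockout groups (Fkbp6, Tex15 and Tex19.2). Without double knockout replicate 2 the count was also 3 (Fkbp6, Mael and Tex15). In the Gm1142-labelled libraries against WT, leaving out WT replicate 1 left 1 call, which was Tdrd7. The shares of all tested genes called in these fits are not given here. Whether the lower counts are particular to these genes was therefore not tested.

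The bases just before the transcription start are shown for the 5 genes called between the knockout groups that had an entry in the RefSeq table (GRCm38.p6). Tex15, Piwil2, Tdrd6, Rnf17, Pnldc1, Spocd1, Morc1 and Mybl1 had none, which left 25 of the 33 genes. Each line gives 250 bases before the RefSeq start, 5′ to 3′ on the strand of the gene. Capitals mark matches to the E-box CACGTG, which basic helix-loop-helix factors bind, to the MYB motif AACNGNC and to the E2F motif GCGGGAA, each searched on both strands. The windows are chr5:135350045-135350294 (minus) for Fkbp6, chr1:166238745-166238994 (minus) for Mael, chr13:112652311-112652560 (minus) for Ddx4, chr3:94412994-94413243 (plus) for Tdrkh and chr14:54517471-54517720 (minus) for Prmt5.
Fkbp6: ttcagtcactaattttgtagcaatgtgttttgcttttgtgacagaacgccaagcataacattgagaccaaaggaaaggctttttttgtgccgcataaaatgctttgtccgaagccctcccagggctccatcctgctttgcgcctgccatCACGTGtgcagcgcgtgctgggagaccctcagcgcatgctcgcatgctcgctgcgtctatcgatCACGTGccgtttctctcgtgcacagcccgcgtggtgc
Mael: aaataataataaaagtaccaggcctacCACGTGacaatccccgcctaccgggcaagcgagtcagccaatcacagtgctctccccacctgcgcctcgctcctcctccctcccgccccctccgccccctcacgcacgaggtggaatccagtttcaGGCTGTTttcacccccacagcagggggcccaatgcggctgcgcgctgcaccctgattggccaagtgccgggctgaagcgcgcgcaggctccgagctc
Ddx4: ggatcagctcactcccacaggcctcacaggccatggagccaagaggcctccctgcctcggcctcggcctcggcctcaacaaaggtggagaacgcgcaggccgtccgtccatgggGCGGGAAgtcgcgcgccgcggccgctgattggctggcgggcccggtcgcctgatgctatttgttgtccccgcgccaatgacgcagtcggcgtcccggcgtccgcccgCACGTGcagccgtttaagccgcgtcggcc
Tdrkh: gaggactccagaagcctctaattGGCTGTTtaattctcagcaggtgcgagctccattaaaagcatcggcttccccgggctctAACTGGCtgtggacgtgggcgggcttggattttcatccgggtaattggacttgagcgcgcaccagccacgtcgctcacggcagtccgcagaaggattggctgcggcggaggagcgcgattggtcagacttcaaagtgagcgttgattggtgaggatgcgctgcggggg
Prmt5: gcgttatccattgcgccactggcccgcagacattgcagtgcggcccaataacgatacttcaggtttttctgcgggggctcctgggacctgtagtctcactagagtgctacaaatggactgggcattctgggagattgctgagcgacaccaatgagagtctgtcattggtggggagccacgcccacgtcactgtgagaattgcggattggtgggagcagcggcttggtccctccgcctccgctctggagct

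Fkbp6 had the E-box at positions -101 to -96 and -37 to -32 from its start, Mael at -223 to -218 and Ddx4 at -29 to -24. Tdrkh held 2 MYB matches and no E-box, and Prmt5 held none of the motifs. Over the 25 genes, 9 (36.0%) had the E-box, against 8.33% of the 11580 tested genes with an entry and 6.02% of all 27025 entries. Those 9 were Piwil1, Tdrd1, Tdrd9, Stk31, Pld6, Mov10l1, Fkbp6, Mael and Ddx4. Piwil1, Tdrd9 and Fkbp6 held 2 each, and 94 of the 11580 tested genes held at least 2. The RefSeq start used for Piwil1 lies 33722 bases from its gene start in GENCODE M21. That distance is 5209 bases for Snd1, 684 for Henmt1 and at most 316 for the other genes. The MYB motif stood in 12 of the 25 (48.0%), against 27.9% of tested genes and 27.6% of all entries, and the E2F motif in 2, Tdrd5 and Ddx4, or 8.0% against 6.99% and 3.87%. No E-box overlapped a MYB or E2F match in these genes. Each match is a match of letters only, and no binding was measured.

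**Figure D3:**
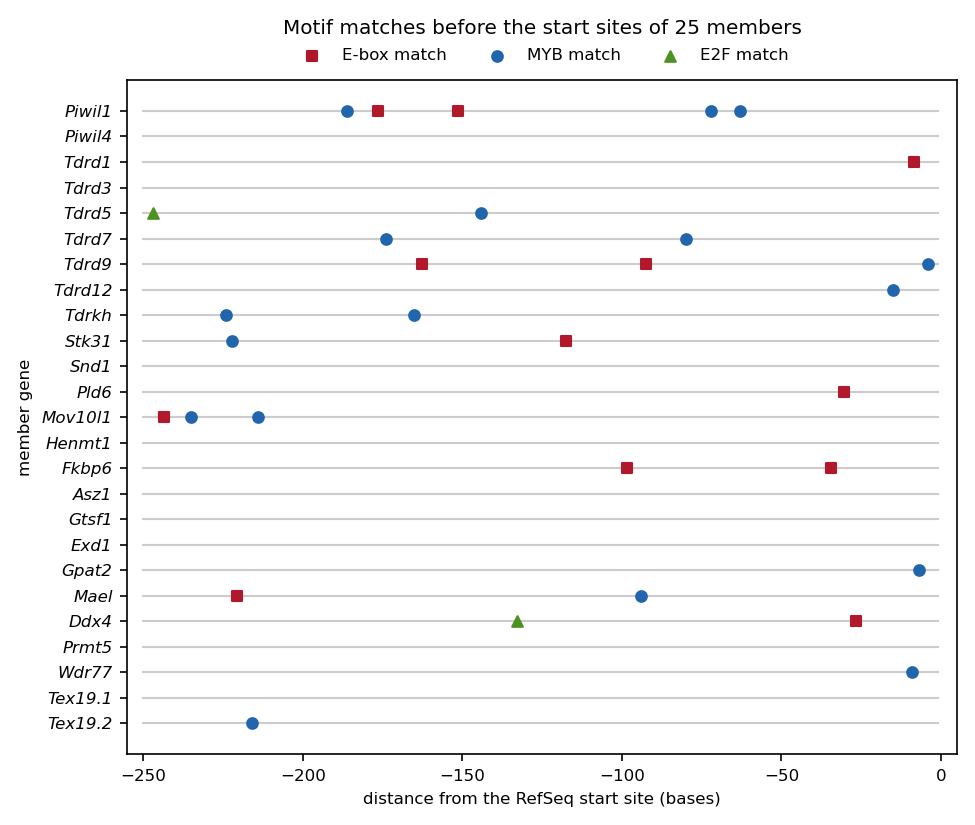
Positions of E-box, MYB and E2F matches (symbols) along the 250 bases before the start site (horizontal axis, distance in bases) in the 25 genes with a RefSeq entry. E-box matches occur in 9 genes and lie between -246 and -6.

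Other genes of the pathway and of germ granules, with some genes outside both such as Ctcfl, were examined as a further list. Of 28 matched genes of a further list 24 were tested, and in the double knockout against WT none was called by edgeR (5 had an unadjusted p under 0.05, all higher). There 22 of the 24 had a fitted log2 fold change above 0, against 52.3% of all tested genes, with a median of 0.20 against 0.02. Ctcfl, a germ-line relative of the insulator protein CTCF, had 1.53, 1.38 and 1.29 CPM in WT, 2.72, 2.56 and 2.34 in the Gm1142-labelled libraries and 7.08, 5.64 and 6.57 in the double knockout. In WT these are 8, 7 and 6 counts and in the Gm1142-labelled libraries 14, 10 and 11, not far above the floor of 3 counts. The 3 groups did not overlap. Ctcfl was called only between the knockout groups (log2 fold change 1.33, edgeR adjusted p = 0.0325, SE 0.42), with 2.17 in the double knockout against WT (adjusted p = 0.0788).

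In the Gm1142-labelled libraries against WT, 3 of the 24 rose and 1 fell, while 10.2% of all tested genes rose and 8.38% fell. Riok1, which competes with other adaptors for Prmt5, rose by 0.70 (SE 0.13) and Trim28, a co-repressor of transposons, by 0.55 (SE 0.12), and Setdb1, the histone methyltransferase recruited by Trim28, fell by 0.47 on the log2 scale (SE 0.12). The levels of Riok1 were 55.1, 69.2 and 59.0 CPM in WT, 101, 105 and 92.7 in the Gm1142-labelled libraries and 60.8, 57.5 and 61.8 in the double knockout. As for Wdr77, the Gm1142-labelled libraries were above both other groups. Between the knockout groups 6 rose, among them Mov10 (0.54), Ddx6 (0.58) and Setdb1 (0.41), and 2 fell, Riok1 by 0.73 and Trim28 by 0.39. Of all tested genes 9.07% rose and 10.1% fell there.

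The summed level of germ-cell markers was, like that of the pathway genes, highest in the double knockout. None of the 22 germ-cell markers was at 0 in every library, and their summed level was 596 to 716 CPM in WT, 559 to 709 in the Gm1142-labelled libraries and 951 to 1158 in the double knockout. The summed level of the 33 genes was 820 to 870, 834 to 940 and 1016 to 1236 CPM in the same groups. In the double knockout against WT, 3 of 21 tested germ-cell markers were called, all higher, against 0.0464% of all tested genes called higher. Dazl, an RNA-binding protein of germ cells, rose by 0.83 on the log2 scale. The synaptonemal gene Sycp1 rose by 1.10 and the spermatogonial gene Uchl1 by 0.77. Of the 21, 19 had a fitted log2 fold change above 0, against 52.3% of all tested genes, and the median was 0.66 against 0.02. The other 2 were the stem-cell markers Gfra1 and Id4, and Gfra1 lay below WT in all 3 double-knockout libraries, at 6.70, 8.69 and 8.61 CPM against 9.95, 13.6 and 11.4, without being called (log2 fold change -0.54, edgeR adjusted p = 0.577). Id4 was at -0.37 with overlapping groups. Between the knockout groups 9 were called higher and none lower by edgeR, against 9.07% and 10.1% of all tested genes, with a median of 0.48. Dazl had 179, 226 and 181 CPM in WT, 138, 103 and 131 in the Gm1142-labelled libraries, and 305, 368 and 370 in the double knockout. Without Dazl, the summed markers were 444 ± 40.3 CPM in WT, 518 ± 60.9 in the Gm1142-labelled libraries and 711 ± 73.4 in the double knockout (SD, n = 3).

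Set against the summed level of the markers, the pathway was not higher in the double knockout. Log2 fold changes of the tested markers against WT ran from -0.54 to 1.75 there, so the ratio depends on which markers make up the sum. Abundant markers weigh most. Of the 33 genes, 5 (Prmt5, Wdr77, Snd1, Tdrd3 and Tdrd7) are widely expressed and were left out of this ratio. The summed level of the other 28 divided by that of the 22 markers was 0.987 ± 0.0535 in WT, 1.02 ± 0.0624 in the Gm1142-labelled libraries and 0.819 ± 0.0188 in the double knockout (SD, n = 3). Without Dazl, the most abundant marker, which was left out after its values were seen, the ratio was 1.42 ± 0.0620, 1.26 ± 0.0616 and 1.22 ± 0.0107. In the double knockout both ratios lay below WT in every library. Without Dazl the Gm1142-labelled libraries also lay below WT in every library and overlapped the double knockout. The part of germ-cell number, or of RNA per germ cell, in the levels of the pathway genes was not tested.

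**Figure D4:**
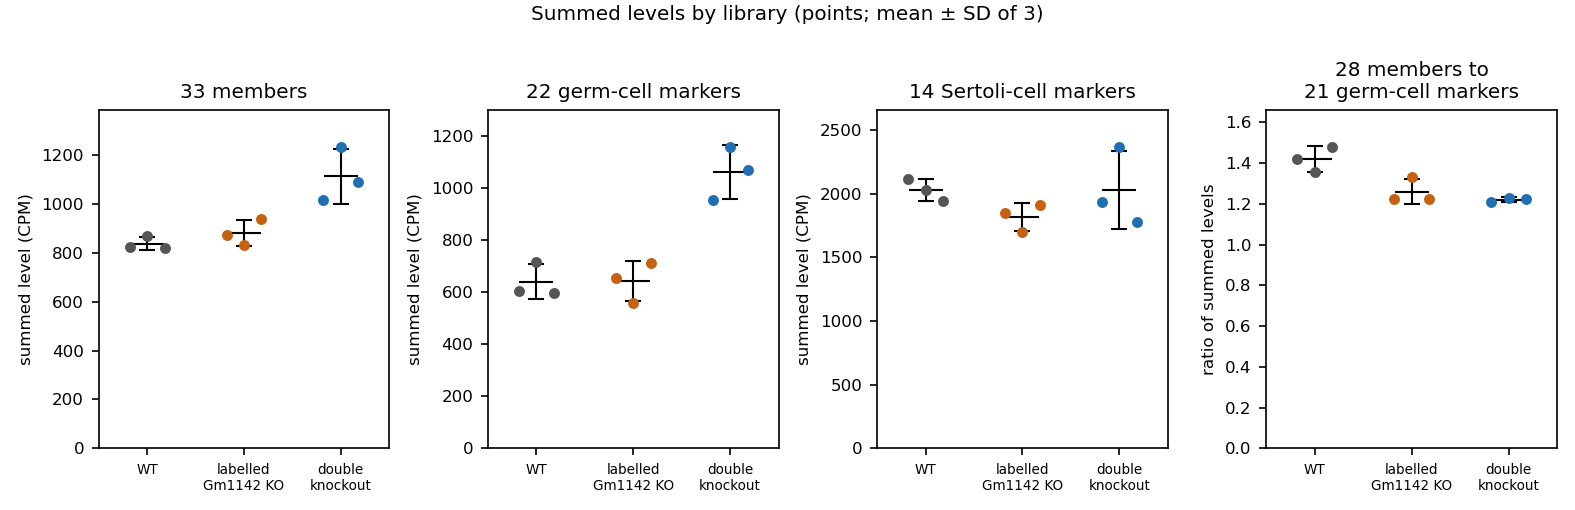
Summed level in CPM of the 33 genes, 22 germ-cell markers and 14 Sertoli-cell markers, and the ratio of 28 genes to 21 germ-cell markers (without Dazl), by group; points are libraries, bars the mean ± SD of 3, and axes start at 0. The 33 genes and the germ-cell markers are highest in the double knockout (1016 to 1236 and 951 to 1158 CPM), and the ratio is highest in WT (1.36 to 1.48).

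Markers of Sertoli cells, the supporting cells of the cords, summed to 1940 to 2117 CPM in WT, 1697 to 1910 in the Gm1142-labelled libraries and 1779 to 2371 in the double knockout. Of 13 tested, 1 rose and 4 fell in the Gm1142-labelled libraries against WT, where 10.2% of all tested genes rose and 8.38% fell. In the double knockout against WT none was called by edgeR (1 had an unadjusted p under 0.05). Between the knockout groups 7 rose and 1 fell, against 9.07% and 10.1% of all tested genes. Duct markers, which a dissection could bring along, summed to 44.5 to 53.8 CPM in WT, 39.4 to 43.1 in the Gm1142-labelled libraries and 20.9 to 33.7 in the double knockout. Red-cell markers summed to 68.7 to 82.9, 95.2 to 137 and 62.4 to 82.7 CPM, highest in the Gm1142-labelled libraries. Leydig-cell markers summed to 1154 to 1379, 1084 to 1281 and 1032 to 1268 CPM. Of 7 tested 1 rose and 3 fell in the Gm1142-labelled libraries against WT, where 10.2% of all tested genes rose and 8.38% fell. Akr1cl, the most abundant, rose from a mean of 615 CPM in WT to 890. Mean levels of Cyp17a1 fell from 123 to 20.2 CPM, of Fdxr from 246 to 105 and of Hsd3b1 from 140 to 87.4. Cyp17a1 varied several-fold within groups. It had 165, 157 and 46.3 CPM in WT, 13.8, 39.1 and 7.67 in the Gm1142-labelled libraries and 124, 23.4 and 119 in the double knockout. The sums do not show these opposite changes. Peritubular markers (376 to 555 CPM over the 9 libraries), endothelial markers (65.5 to 153 CPM) and macrophage markers (38.8 to 57.4 CPM) overlapped between all groups in their summed levels. Single genes could still differ. Of 6 tested endothelial markers 1 rose and 1 fell between the knockout groups, against 9.07% and 10.1% of all tested genes. Of 6 tested peritubular markers 1, Des, fell in the Gm1142-labelled libraries against WT, against 8.38% of all tested genes. The part of these shifts in the results for the pathway genes was not tested.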

How the data were processed

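Polyadenylated RNA of mouse testes at postnatal day 7 was measured in 9 libraries, grouped by their titles. The deposited table holds raw counts per gene made by the authors, with cutadapt, Bowtie2, STAR, featureCounts and build mm39 named in the submitters' processing notes. Versions, annotation release and strand setting, not given in the sources used here, affect genes that share exons or have near-identical copies. Library totals were 4370124 to 8359594 counts.

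Counts were analysed with edgeR 4.0.16 in R 4.3.3. The default filter (minimum count 10, total 15) left 17251 genes. Sizes were scaled by TMM, and a quasi-likelihood fit with 1 term per group over all 9 libraries (6 residual degrees of freedom) gave 3 comparisons, adjusted over all genes. The standard error is the size of the log2 fold change divided by the square root of F, and 95% intervals use the t quantile 2.08. The floor of 3 counts is 0.338 to 0.767 CPM and covers counting error only (no molecular identifiers, so reads are not independent). Levels per kilobase use exonic lengths of GENCODE M21 (GRCm38), another build than the counting used. The test was tested on simulated data.

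The genes, lists and tests were chosen with earlier results of these data known. Of 137 list entries in 15 lists, 135 matched by symbol, and Tdrd10 and Tdrd15 did not. Values in every library are given for genes called in any comparison and for Piwil1, Piwil2, Piwil4, Ddx4 and Mybl1. Genes under the filter are given by counts and the others by range and counts. Of each other list, called genes with the smallest p may be named, up to 6. Tdrd7, Pld6, Exd1, Gfra1 and Id4 were added after their values were seen. Alternatives were DESeq2 1.42.0 and its size factors, limma-voom (limma 3.58.1), no filter, a strict filter (1 CPM or more in 3 libraries, 100 counts overall), a fit of only the groups compared, a block for the replicate number, and leaving out each library. Removing mitochondrial genes and thinning to the shallowest library were chosen after seeing the data.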

Additional observations from a re-analysis of the deposited data

How the results depend on the processing

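The number of genes called in the double knockout against WT was 1, and it was 2 with no filter (Fkbp6 and Tex15), 0 with the replicate block, 0 with mitochondrial genes removed and 0 to 1 with a library left out. In the Gm1142-labelled libraries against WT it was 3, and 1 to 3 with a library left out. Between the knockout groups it was 6, and it was 10 with limma-voom and 3 to 7 with a library left out. The other settings kept these counts within 1.5 times. The causes of the shifts were not tested, and the fits with a library left out also hold fewer samples. No called value changed sign under an alternative. Of 96 fitted values of single genes, 22 that were not called changed sign, among them Spocd1 (-0.50 to 0.17 with a library left out) and Piwil4 (-0.10 to 0.12) in the double knockout against WT, Piwil2 (-0.14 to 0.26) in the Gm1142-labelled libraries against WT and Stk31 (-0.09 to 0.19) between the knockout groups. The median log2 fold change of the tested genes stayed between 0.37 and 0.51, 0.06 and 0.12, and 0.25 and 0.43 in the same order of comparisons. Across single genes and alternatives, a call was lost 32 times and gained 16 times.

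Equal replicate numbers were checked as a possible pairing. Residuals of same-numbered libraries correlated at -0.267 to 0.101, and those of differently numbered libraries of different groups at -0.188 to 0.163. The libraries were treated as unpaired, though residuals from so few libraries cannot exclude a shared litter or day. The replicate block gave 3 and 6 called genes in the other 2 comparisons. With it Fkbp6 lost its call in the double knockout against WT (edgeR adjusted p = 0.0827), and between the knockout groups Tdrkh lost its call (0.0628) and Piwil2 gained one (0.0386).

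Over all genes, the number called in the double knockout against WT was 16, and 9 to 110 under the alternatives. For the other 2 comparisons the numbers over all genes under the alternatives are not given here. The counts of pathway genes called there are therefore not set against a background. Depth limits Piwil1, Pld6 and Tdrd6, with 1 to 36 counts per library for the first 2.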
